A study of Mus musculus with 24 samples.

Results

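miR-126 was measured in mammary tumors of PyMT mice and in normal mammary glands by small RNA sequencing, and it is 1 of the 510 miRNAs in the deposited table of read counts. It was taken as the row named mir-126, read in all 24 libraries by genotype and week. The tumors came from female F1 mice heterozygous for the polyoma middle T (PyMT) transgene, which the MMTV promoter drives mainly in mammary epithelium. These mice were bred from transgenic males of the FVB/N strain and FVB females. The controls were mammary glands of female FVB mice without the transgene. Both were taken at week 6 (hyperplasia in the transgenic mice), week 8 (adenoma, or mammary intraepithelial neoplasia), week 10 (early carcinoma) and week 12 (late carcinoma), with 3 libraries for each genotype and week. Every library was made from RNA of whole tissue, normal gland or tumor, and so could hold RNA of epithelium or tumor cells, vessels, stroma, fat and blood.

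miRNAs are short RNAs that guide Argonaute proteins to matching sites in messenger RNAs and lower their output, mainly through the seed, bases 2 to 8 of the mature strand. miR-126 is made from an intron of Egfl7, a gene of endothelial cells, and is regarded as an endothelial miRNA. In endothelium it is known to repress Spred1 and Pik3r2, inhibitors of the signaling that follows VEGF and FGF, and Vcam1, an adhesion molecule for leukocytes, and its loss impairs vessel integrity. In breast cancer it has been described as a miRNA lost from metastatic cells.

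Mature strands of the locus are shown because the table gives 1 row for the miRNA, without saying which arm its reads came from, and because a second miRNA is annotated on the opposite strand of the same locus. RefSeq (GRCm38.p6) names the gene Mir126a, with mir-126 as a synonym. Capitals mark the seed.
miR-126a-3p: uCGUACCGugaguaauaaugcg
miR-126b-5p: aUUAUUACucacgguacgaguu
miR-126b-3p: cGCGUACCaaaaguaauaaugug
In the mm9 genome the miR-126 hairpin of 73 bases lies on the plus strand at chr2:26446877-26446949, and the 3p strand of 22 bases occupies chr2:26446922-26446943. The hairpin is inside Egfl7 (chr2:26435534-26448640, plus strand). Of the 11 annotated Egfl7 transcripts that span it, 10 have it in an intron and 1 has an exon that overlaps it. The predicted gene Gm20532 overlaps it too. The 3p sequence occurs once in the mm9 genome, and of the 1738 mature miRNAs in the RefSeq table it is the only 1 with the seed CGUACCG. The other arm of the hairpin is named miR-126a-5p. Both miR-126b strands are the reverse complement of stretches of the miR-126 hairpin. The sources used here do not say whether strand was used in counting, so reads from miR-126b cannot be told apart from those of miR-126.

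The libraries held 1626022 to 3931375 miRNA reads in normal glands (median 2964452) and 1032241 to 2213972 in tumors (median 1690296.5). At those depths the counts of miR-126 were 46993 to 138135 in normal glands, and 5587 to 32163 in the tumors, far above the floor of 3 counts, which corresponds to 0.763 to 1.84 CPM (read counts scaled to a common library total) in normal glands and 1.36 to 2.91 CPM in tumors. Levels below are CPM after TMM scaling, which corrects library sizes for a few miRNAs that take many reads.

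miR-126 was an abundant miRNA in both tissues and was lower in tumor. It ranked 5 to 11 among all miRNAs of a library in normal glands and 8 to 29 in tumors. As a share of the miRNA reads it made up 2.07% to 3.55% in normal glands and 0.541% to 1.87% in tumors. All 12 tumor libraries lay below all 12 normal libraries, from 6568.38 to 18253.6 CPM against 20498 to 37464 CPM. The order did not need the scaling, since the highest tumor library stood at 18708.9 CPM and the lowest normal library at 20737.1 CPM of its unscaled reads. The share of all miRNAs that separated over the 24 libraries is not given here, and shares for single weeks follow below.

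At week 6 the 3 normal glands stood at 22201.5, 20802 and 26313.6 CPM. The 3 hyperplasias stood at 13181.5, 18253.6 and 11941.5 CPM. The groups did not overlap, and the closest pair was the second hyperplasia and the second normal gland.

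At week 8 the normal glands were at 36964.8, 26037 and 30772.7 CPM. The adenomas were at 15108.4, 6568.38 and 13408.6 CPM. The second adenoma was the lowest of all 24 libraries and also the shallowest, with 5587 miR-126 reads of 1032241, a share of 0.541% with an exact Clopper-Pearson 95% interval of 0.527% to 0.556% for counting error only.

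At week 10 the normal glands were at 31843.5, 32797.9 and 20498 CPM. The early carcinomas were at 10072.6, 11295.2 and 11603.4 CPM. These tumors differed least among themselves, with a coefficient of variation of 7.37%, while the third normal gland was the lowest of all normal libraries.

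At week 12 the normal glands were at 35332.8, 23189.1 and 37464 CPM. The late carcinomas were at 12616.4, 11618.6 and 8571.03 CPM. Again the groups were apart, and the second normal gland was the one nearest to the tumors.

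**Figure D1:**
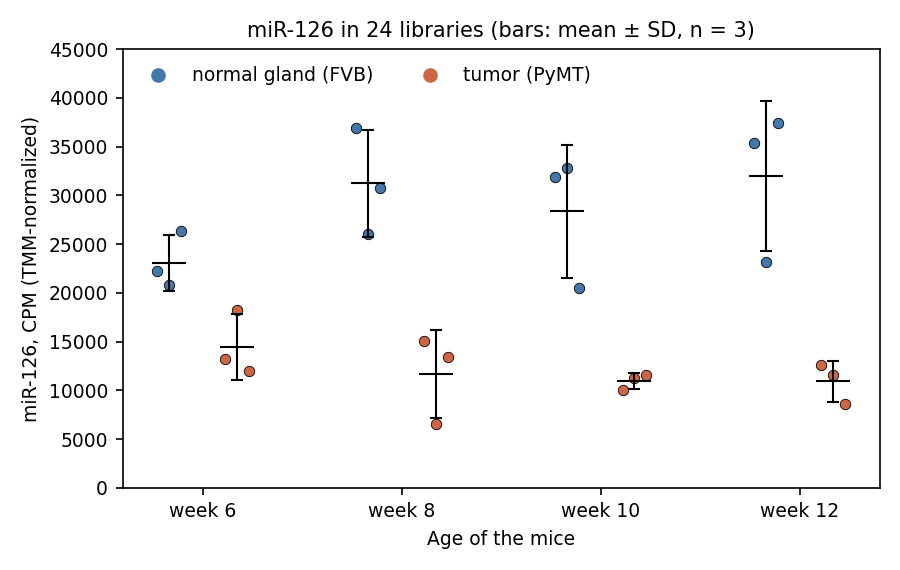
Level of miR-126 (TMM-scaled CPM) by week in the 24 libraries, with points for single libraries and a bar with whiskers for each group's mean and SD of 3 libraries. Tumor libraries sit between 6568.38 and 18253.6 CPM, below the normal libraries between 20498 and 37464 CPM, at every week.

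Ordered by mean, the groups ran from normal week 12 (31995 CPM ± 7700, SD, n = 3) through normal week 8 (31258 ± 5480), normal week 10 (28380 ± 6842) and normal week 6 (23106 ± 2865) to tumor week 6 (14459 ± 3344), tumor week 8 (11695 ± 4521), tumor week 10 (10990 ± 810) and tumor week 12 (10935 ± 2107). Neighbours in that order overlapped in their libraries at every step except from normal week 6 to tumor week 6. The order therefore separated the genotypes. Within a genotype, groups next to each other by mean overlapped, which with 3 libraries does not show equal levels. Tumor week 6 (11941.5 to 18253.6 CPM) and tumor week 10 (10072.6 to 11603.4 CPM), not next to each other in that order, did not overlap. Tumor week 6 did overlap tumor week 12 (8571.03 to 12616.4 CPM). The share of miRNAs apart between tumor weeks 6 and 10 is not given here, and the test over tumor weeks, given below, did not pass.

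miR-126 was under-expressed in tumor relative to normal at each of the 4 weeks, by 1.60-fold in hyperplasia, 2.75-fold in adenoma, 2.62-fold in early carcinoma and 2.97-fold in late carcinoma. In hyperplasia the log2 fold change was -0.67 (SE 0.20, 95% interval -1.14 to -0.21), with an adjusted p of 0.0221 by edgeR (quasi-likelihood test, adjusted by Benjamini-Hochberg over the 237 miRNAs tested). At week 8 it was -1.46 (SE 0.36, -2.28 to -0.64, adjusted p = 0.0182 by edgeR). In early carcinoma it was -1.39 (SE 0.21, -1.89 to -0.89, adjusted p = 0.00161 by edgeR). In late carcinoma it was -1.57 (SE 0.29, -2.25 to -0.90, adjusted p = 0.00420 by edgeR).

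A lower level in tumor was common in this table, so the call alone does not set miR-126 apart. Of the 237 miRNAs tested, 29.5% were called lower in hyperplasia, 13.5% in adenoma, 27.4% in early carcinoma and 21.5% in late carcinoma. The share called lower at all 4 weeks together is not given here, so a call at every week does not set a miRNA apart either. The adenoma share, 32 miRNAs, was the least settled. Library sizes alone gave 25 called lower, DESeq2 50, a single fit of all libraries 52, and replicate numbers as a block 68. All 3 tumor libraries lay below all 3 normal libraries for 34.6%, 19.8%, 31.6% and 28.7% of miRNAs at weeks 6, 8, 10 and 12. By size, 81 of the 237 miRNAs had a lower log2 fold change than miR-126 in hyperplasia, but 22 did in adenoma, 20 in early carcinoma and 27 in late carcinoma. Over all tested miRNAs the median was -0.12, -0.09, -0.15 and -0.19 at the 4 weeks, and relative to that median miR-126 stood at -0.55, -1.37, -1.24 and -1.38.

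Over the mean of the 4 weeks, in 1 fit of all 24 libraries, miR-126 was 2.38-fold lower in tumor (log2 fold change -1.25, SE 0.14, -1.54 to -0.97, adjusted p = 9.14e-08 by edgeR), beside 46.8% of miRNAs called lower in that comparison. Since each library is RNA of a whole tissue, fewer endothelial cells among the cells of a tumor and less miR-126 in each cell cannot be told apart here, and neither can dilution by tumor cells that make other miRNAs. Messenger RNAs of endothelial genes, Egfl7 included, were not analysed here.

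**Figure D2:**
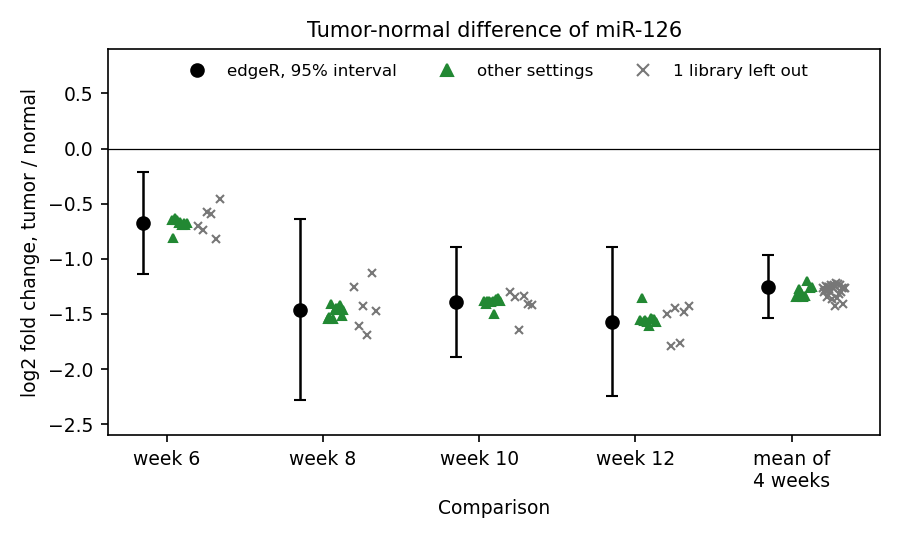
Log2 fold change of miR-126, tumor against normal, at each week and over the mean of the 4 weeks, with circles and bars for the edgeR estimate and its 95% interval, triangles for other analysis settings and crosses for fits with 1 library left out. All 5 estimates lie below 0, from -1.57 at week 12 to -0.67 at week 6, as do all triangles and crosses.

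The call at week 6 rested on single libraries: without the first hyperplasia the log2 fold change was -0.60 (adjusted p = 0.0863 by edgeR) and without the third it was -0.46 (adjusted p = 0.0938 by edgeR). At week 8 the call was lost without the first normal gland (-1.26, adjusted p = 0.0508 by edgeR) and was held without the second adenoma, the outlying shallow library (-1.13, adjusted p = 0.0130 by edgeR).

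The labels give 2 sequencing lanes, and each week had tumor and normal libraries in both. Within a lane miR-126 was lower in tumor in all 8 combinations of week and lane. The difference in mean log2 CPM in lanes 1 and 2 was -0.47 and -1.14 for hyperplasia, -1.64 and -1.20 for adenoma, -1.66 and -1.18 for early carcinoma, and -1.49 and -1.56 for late carcinoma. Each of these values rests on 1 or 2 libraries of a genotype and has no test of its own.

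The difference between tumor and normal was smallest at hyperplasia, but its variation over the weeks did not pass the test. The 3 interaction terms together gave an F of 2.10 (adjusted p = 0.938 by edgeR), in a comparison where 0% of the 237 miRNAs were called, 9 had an unadjusted p under 0.05 and DESeq2's likelihood ratio test called 0. Taken as a single contrast, the difference at week 12 minus that at week 6 was -0.87 on the log2 scale (SE 0.38, -1.67 to -0.07), with an unadjusted p of 0.0339 and an adjusted p of 0.326 by edgeR. In that contrast 0.422% of miRNAs were called.

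Neither genotype alone showed a change of miR-126 over the weeks that passed the test. In normal glands the level at week 12 differed from week 6 by 0.47 on the log2 scale (SE 0.27, -0.10 to 1.03, adjusted p = 0.234 by edgeR), where 21.1% of miRNAs were called. This value rests on the second normal gland of week 12, without which it was 0.89 (adjusted p = 0.0259 by edgeR), and on the scaling, since library sizes alone gave 0.145 (adjusted p = 0.815 by edgeR). In tumors the level at week 12 differed from week 6 by -0.40 (SE 0.27, -0.97 to 0.16, adjusted p = 0.364 by edgeR), where 7.59% were called. This value shrank to -0.11 without the second hyperplasia and to -0.19 without the third late carcinoma. Tests over all 4 weeks gave an F of 1.21 in normal glands (adjusted p = 0.633 by edgeR, 13.9% of miRNAs called) and of 1.02 in tumors (adjusted p = 0.811 by edgeR). In tumors that test called 0% of miRNAs, with 39 at an unadjusted p under 0.05 and 17 called by DESeq2's likelihood ratio test.

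Other miRNAs that are studied in vessel growth did not move as a group with miR-126. A list of 23 such miRNAs, most of them made by other cells too, held 19 that were tested, and 4 (miR-221, miR-222, miR-322 and miR-503, all on chromosome X) that had 0 counts in every library. Every list member with 0 counts lies on chromosome X, so these zeros were not read as absence from the tissue. At weeks 6, 8, 10 and 12 the numbers called lower in tumor were 5, 4, 8 and 7, and the numbers called higher were 9, 7, 10 and 9. Over all tested miRNAs 29.1%, 21.9%, 32.9% and 29.1% were called higher at those weeks. The median log2 fold change of the list was 0.43, 0.48, 0.68 and 0.78, against the medians of all miRNAs given above. miR-10b, miR-100 and miR-130a were under-expressed at all 4 weeks, as miR-126 was. miR-17, miR-19a and miR-92a of the miR-17-92 family, known for promoting proliferation, and miR-23b, miR-27b and miR-296 were over-expressed at all 4 weeks. miR-24 passed the test at no week.

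The smooth muscle and fibroblast lists shared the direction of miR-126. miR-143 and miR-145, known from smooth muscle, were both under-expressed at each week, with list medians of -0.96, -1.54, -1.70 and -1.51. miR-199a, miR-199b and miR-214, known from fibroblasts, were all under-expressed at each week, with medians of -0.97, -1.005, -1.05 and -1.41. Of the leukocyte miRNAs, miR-150, which is abundant in mature lymphocytes, was under-expressed at each week, miR-142 and miR-155 were not, and miR-223, on chromosome X, had 0 counts. The 0 counts of miR-223 were not read as absence either. The 5 miRNAs of the miR-200 family (miR-200a, miR-200b, miR-200c, miR-141 and miR-429), which hold cells in an epithelial state, were all over-expressed at each week, with medians of 1.92, 2.26, 2.14 and 2.32. Erythroid miRNAs (miR-144, miR-451 and miR-486) were called lower for 1, 0, 1 and 3 of 3 members and the 3 tested skeletal muscle miRNAs (miR-1, miR-133a and miR-133b; miR-206 was too low to test) for 0, 1, 0 and 3, beside the 29.5%, 13.5%, 27.4% and 21.5% of all miRNAs. Of the adipocyte-linked miRNAs, miR-193b was called higher at week 6, and 1 member was called lower at week 10 and 1 at week 12. The part that any of these cell types had in the level of miR-126 was not tested.

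**Figure D3:**
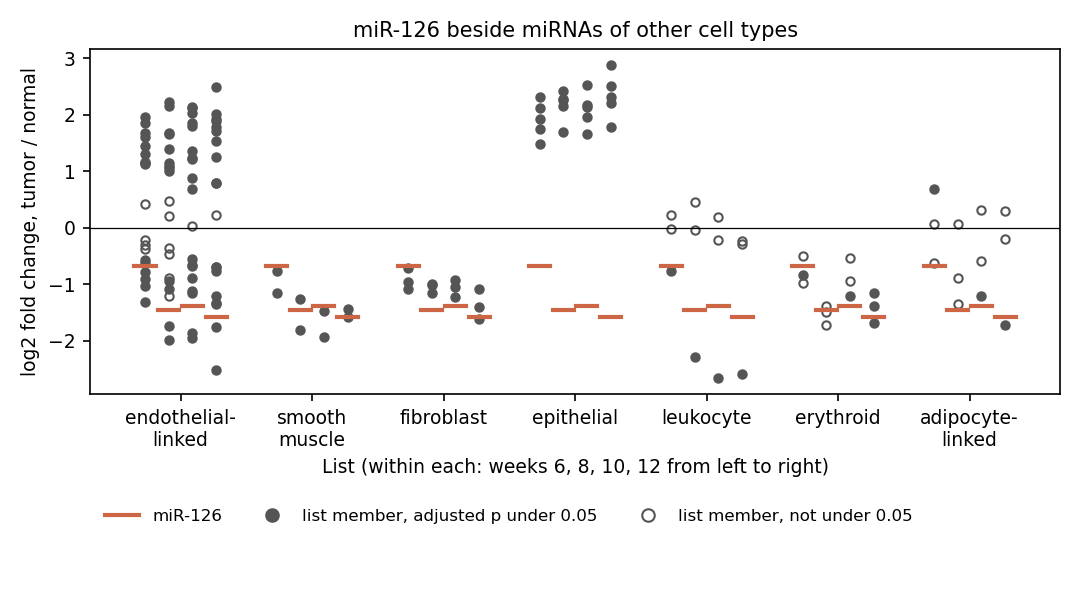
Log2 fold change, tumor against normal, of miR-126 (lines) and of the tested members of 7 lists of cell type miRNAs (circles, filled where the adjusted p was under 0.05), with the 4 weeks from left to right in each list. miR-126 and all smooth muscle and fibroblast members lie below 0, the epithelial members lie above 0 with medians of 1.92 to 2.32, and the endothelial-linked members lie on both sides.

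Within a library, the ratio of miR-126 to the summed CPM of a list does not depend on how libraries are scaled to each other, and it was compared by exact permutation of the genotype labels within weeks (two-sided, 160000 relabellings, Benjamini-Hochberg over 7 lists). The lists were written with earlier results of these data known, so the p-values of these ratios describe the differences and are no independent support. Against the smooth muscle list, whose sum is mostly miR-143, the log2 ratio was -2.85 ± 0.36 (SD) in the 12 tumors and -2.82 ± 0.20 in the 12 normal glands. The difference was -0.03 (-0.29 to 0.23, exact permutation p = 0.836, adjusted 0.939). Against the fibroblast list the ratio was 0.81 ± 0.29 in tumors and 0.93 ± 0.31 in normal glands, a difference of -0.11 (-0.38 to 0.16, exact permutation p = 0.390, adjusted 0.545). Both intervals include 0 and shifts to either side of it, so neither a difference nor equal change of miR-126 and the miRNAs of these lists was shown.

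Against the other endothelial-linked miRNAs the ratio of miR-126 was lower in tumor by a log2 difference of -0.67 (-0.91 to -0.43, exact permutation p = 3.75e-05, adjusted 8.75e-05), and lower at all 4 weeks, from -0.83 to -0.44. That sum is dominated by miR-10b, miR-10a and miR-92a and lacks the members with 0 counts. Against the mean log2 CPM of the tested members, which weighs each equally, the difference was -1.64. Against the leukocyte list, a sum that includes miR-150 and lacks miR-223, the difference was -0.66 (-0.93 to -0.40, exact permutation p = 2.50e-05, adjusted 8.75e-05), again lower at all 4 weeks, from -0.90 to -0.45. Over the 24 libraries most reads of that sum were of miR-142 (81069, beside 42071 of miR-150), which passed the test at no week. miR-150 itself had a lower log2 fold change than miR-126 at each week. Against the epithelial list it was -3.68 (-4.18 to -3.19), with an exact permutation p of 1.25e-05, the smallest the relabellings can give, and no overlap between the genotypes. The paper had already reported the miR-200 family as up-regulated in these tumors, so this direction was known beforehand. The erythroid (-0.02, -0.70 to 0.64, exact permutation p = 0.939) and adipocyte-linked (-0.35, -0.92 to 0.23, exact permutation p = 0.221) ratios did not pass the test.

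**Figure D4:**
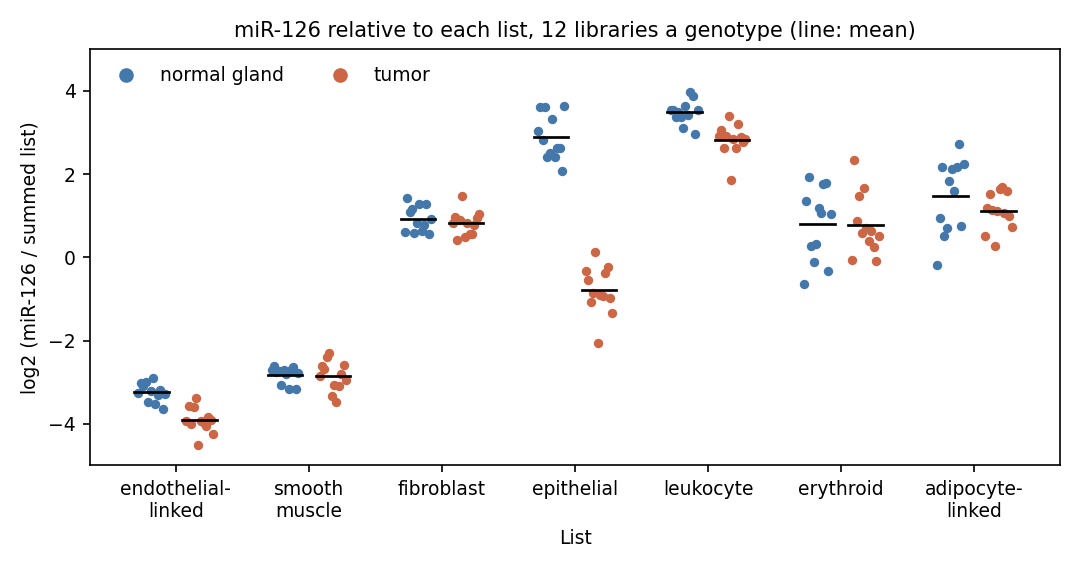
Log2 ratio of miR-126 to the summed CPM of each list in the 24 libraries, tumor and normal side by side, with points for libraries and lines for means. The smooth muscle ratios of tumors (-3.47 to -2.30) and normal glands (-3.17 to -2.62) overlap, and the epithelial ratios (-2.05 to 0.12 against 2.06 to 3.64) do not.

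The 5 miRNAs whose log2 CPM was most like that of miR-126 over the 24 libraries were miR-150, miR-139, miR-10a, miR-708 and miR-10b. For each, 1 mature strand of the RefSeq table is shown. None of these strands has the seed of miR-126a-3p, and miR-10a and miR-10b share a seed with each other, which is why they are set side by side. Capitals mark the seed again, and miR-150-5p is named only.
miR-150-3p: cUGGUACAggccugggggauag
miR-139-5p: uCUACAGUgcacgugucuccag
miR-10a-5p: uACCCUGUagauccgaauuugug
miR-708-5p: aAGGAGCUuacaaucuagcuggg
miR-10b-5p: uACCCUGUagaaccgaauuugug
They come from other loci than miR-126. In mm9, miR-150 lies at chr7:52377127-52377191, miR-139 within Pde2a at chr7:108623890-108623957, miR-10a within Hoxb4 at chr11:96178479-96178588, miR-708 within Odz4 at chr7:103397934-103398042, and miR-10b within Hoxd3 and Hoxd4 at chr2:74564127-74564194.

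Pearson's r over all 24 libraries, which the genotypes split into separate clusters, was 0.973 for miR-150 (Spearman's rho 0.964), 0.966 for miR-139 (0.926), 0.962 for miR-10a (0.961), 0.961 for miR-708 (0.954) and 0.927 for miR-10b (0.894), where the median r of the 236 other tested miRNAs with miR-126 was 0.188. Within the 12 tumors r was 0.863, 0.798, 0.933, 0.809 and 0.729 in the same order, and within the 12 normal glands 0.893, 0.913, 0.790, 0.837 and 0.520. Without the second adenoma, the library with the lowest miR-126, r in the other 11 tumors was 0.916, 0.578, 0.876, 0.669 and 0.586, a check added after the values were seen. The libraries share scaling factors and groups, so these values describe likeness and carry no test. miR-150 lay between 616.384 and 1773.2 CPM in normal glands and between 128.32 and 483.587 CPM in tumors, and miR-139 between 176.693 and 364.698 CPM and between 43.4992 and 137.836 CPM. Their log2 fold changes at weeks 6, 8, 10 and 12 were -0.77, -2.29, -2.66 and -2.58 for miR-150 and -0.96, -1.56, -1.66 and -1.71 for miR-139. Both passed the test at every week, as did miR-708, with -1.44, -2.75, -3.16 and -3.39. miR-10a, at -0.57, -1.21, -1.15 and -1.33, did not pass at week 8 (adjusted p = 0.0545 by edgeR). All were chosen by r over libraries that the genotypes split. Lower levels in tumor were therefore built into the choice, and these calls are no separate support.

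At the other end, miR-141 (r = -0.934), miR-200a (-0.933), miR-345 (-0.924), miR-146b (-0.920) and miR-182 (-0.919) ran most nearly opposite to miR-126. miR-141 and miR-200a belong to the miR-200 family described above. miR-141 lay between 74.5541 and 143.549 CPM in normal glands and between 274.189 and 405.6 CPM in tumors. Its genotypes were apart in the opposite order to those of miR-126, which a choice by the lowest r favors. The share of all miRNAs that were apart in that order is not given here.

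**Figure D5:**
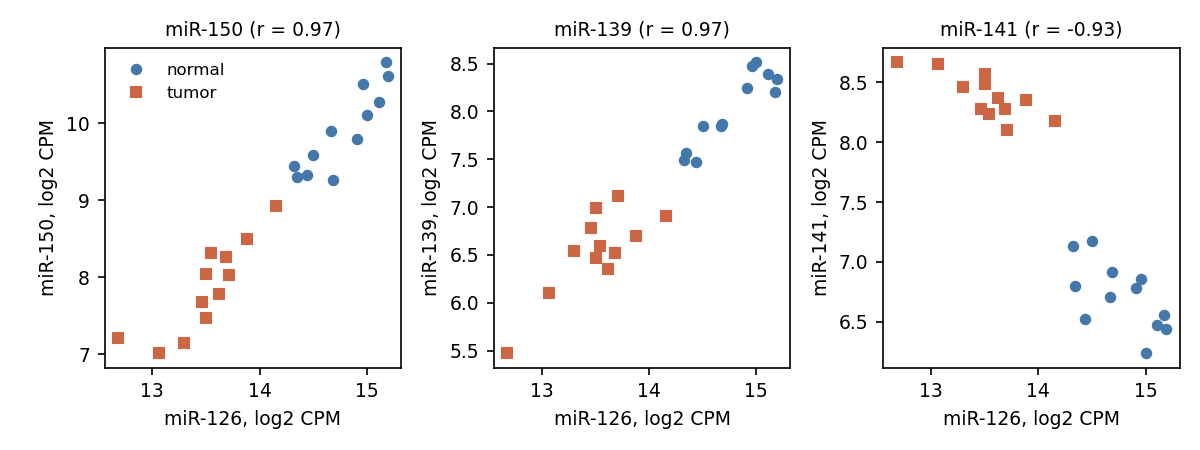
Log2 CPM of miR-150, miR-139 and miR-141 against log2 CPM of miR-126, with circles for the 12 normal glands and squares for the 12 tumors. miR-150 (r = 0.973) and miR-139 (r = 0.966) are high where miR-126 is high, miR-141 (r = -0.934) is low there, and the genotypes form separate clusters in each panel.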

How the data were processed

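Small RNA libraries (TruSeq, single-end reads on a HiSeq2500) of 12 tumors and 12 normal glands were used. The authors aligned trimmed reads with Bowtie and counted those that overlapped a miRBase miRNA, and the deposited values are raw read counts per miRNA. The labels' processing notes and column names give mm9, which was used for coordinates here, while the study's methods name a later build. From these counts, 237 of 510 miRNAs passed edgeR's filterByExpr over 24 libraries and 8 groups. They were TMM-scaled and tested with edgeR 4.0.16 (quasi-likelihood), tumor against normal within each week, and in 1 fit of all libraries for contrasts over weeks, at an adjusted p of 0.05 (Benjamini-Hochberg). Levels are CPM, and log2 CPM used a prior count of 2. DESeq2 1.42.0, other scalings, filters and left-out libraries were alternatives. The scripts were tested on simulated data. Ratios to lists were compared by exact permutation within weeks (Python 3.11.15, numpy 2.4.6). miR-126 and the lists were chosen with earlier results of these data known. The miRNAs named were miR-126, list members, and the 5 most and 5 least correlated with it, plus the 5 most correlated in deviations from group means. The labels give the 3 libraries of a group as separate samples, and p-values measure the spread between these samples. Intervals of a share and floors cover counting error only, while intervals of differences rest on the spread between libraries.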

Additional observations from a re-analysis of the deposited data

How the results depend on the processing

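Of 130 values of 28 results under other settings, 127 kept their direction and, where tested, their side of the threshold, and of 288 values with a library left out, 268 did. The sign of the smooth muscle and erythroid ratios, whose differences did not pass the test, was not settled: with a library left out they ran from -0.0936 to 0.041 and from -0.183 to 0.153 (adjusted exact permutation p 0.513 to 0.998 and 0.639 to 0.998). At week 6 the log2 fold change of -0.67 had an adjusted p of 0.0512 in edgeR's classic exact test, and the alternatives ran from -0.81 to -0.63. At weeks 8, 10 and 12 and over the mean of the 4 weeks the ranges were -1.55 to -1.41, -1.501 to -1.35, -1.61 to -1.35 and -1.35 to -1.20. With a library left out, the values ran from -0.82 to -0.46 at week 6 (adjusted p 0.0283 to 0.0938 by edgeR), from -1.69 to -1.13 at week 8 (0.0130 to 0.0508), and from 0.38 to 0.89 for week 12 minus week 6 in normal glands. With the mean log2 CPM of a list in place of its sum, the smooth muscle ratio was 0.16 (adjusted exact permutation p = 0.260), the endothelial-linked ratio was -1.64 and the adipocyte-linked ratio was -0.94 (adjusted exact permutation p = 2.92e-05), because rare members then weigh as much as abundant ones. The labels do not say that a shared replicate number marks a shared litter or day, and pairing was to be used only if deviations from the group means correlated over 0.1 in every same-numbered pair of tumor and normal libraries. They did in 10 of 12 pairs (0.031 to 0.816), and 9 of 12 tumors correlated best with their own number, a hint of pairing from the data that missed this rule. In every such pair both libraries also shared a sequencing lane, and the part of the lane in these correlations was not tested. The replicate block gave -0.69, -1.52, -1.35 and -1.54 at the 4 weeks and -1.27 over their mean, all called, and changed no call on miR-126. It raised the miRNAs called at week 8 from 84 to 131, and those called lower from 32 to 68 (50 by DESeq2, 52 in a single fit of all libraries). A minimum of 10 counts in every library lowered the calls between weeks in normal glands from 33 to 18 and between weeks 12 and 6 from 50 to 28. In tumors the latter count was 18, or 32 by DESeq2 and 10 with no filter, and the test over 4 weeks called 0, or 3 with DESeq2 size factors. The change of the difference from week 6 to week 12 called 1, or up to 3 by DESeq2. Scaling by library size alone moved the median of all miRNAs at week 12 from -0.19 to -0.01, and miR-126 relative to it from -1.38 to -1.35. With 3 libraries against 3, a permutation test of 1 week cannot go below 0.1.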

Other observations

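Variation within groups was compared with that of the other tested miRNAs as well. The deviations of log2 CPM from the 8 group means were most alike for miR-150 (r = 0.883), miR-139 (0.857), miR-10a (0.852), miR-708 (0.785) and miR-365 (0.716), where the median over the other tested miRNAs was -0.05. The next value was 0.705, so these 5 do not stand apart as a set, and the lowest was -0.718 for miR-146b. Being the extremes of 236 values from libraries that share scaling factors, they carry no test and do not show that the miRNAs vary together. The second adenoma, which had the lowest miR-126, deviated from its group mean by -0.74 on the log2 scale for miR-126, by -0.71 for miR-150, by -0.96 for miR-139, by -0.88 for miR-10a and by -1.42 for miR-708. It held 125 reads of miR-150, 37 of miR-139 and 17 of miR-708, so counting error weighs more on these than on the 5587 reads of miR-126. Without that library r was 0.864 for miR-150, 0.750 for miR-139, 0.739 for miR-10a, 0.618 for miR-708 and 0.792 for miR-365, a check added after the values were seen. For miR-10b, the fifth by levels, r of the deviations was 0.573 with it and 0.197 without it.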
